A study of Rattus norvegicus with 30 samples.

Results

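Beside 40071 Ensembl transcripts, the index against which these rat kidney reads were counted held 25095 stretches of the genome, each named only by its chromosome, start and end. The 200 intervals described here had the highest mean level among the 23895 intervals outside chromosomes X and Y. The level is the estimated count of an interval per 1000000 counts of the Ensembl transcripts of the same library (CPM), averaged over 30 libraries. The members were thus chosen by their measured level, which is given as a description. Their places and lengths did not enter the choice, although earlier results of these data were known. A mean over all libraries is raised by single very high libraries, so it can carry in an interval that is low in most kidneys.

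The 30 libraries came from whole kidneys of 30 Sprague-Dawley rats in 6 groups of 5. Rats received saline (vehicle, 1 ml/kg), or mercuric chloride (HgCl2) at 0.25 mg/kg (low dose) or 0.50 mg/kg (high dose), and kidneys were taken at 10 h or 34 h. Saline was the only agent that the control rats were labelled with, and the doses were set to give graded injury. The sources used here do not give age or sex. Frozen kidneys were powdered whole, so cortex, medulla and all their cell types are mixed, and fewer cells of a type cannot be told apart from less RNA per cell. Poly-A enriched, stranded libraries were sequenced from both ends with reads of 75 bases. The deposited transcript IDs carry no gene symbols here, so kidney markers were not checked.

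As background, mercuric salts injure mainly the proximal tubule, the nephron segment that takes up and concentrates the metal. Poly-A RNA outside annotated genes can be the end of a gene whose annotation stops short, an unannotated long non-coding RNA, a retained intron, a pseudogene or a repeat. kallisto, the counting tool, divides a read that fits several targets among them, so that copies of one sequence can receive counts together wherever they lie. The interval names give no strand, gene or repeat class. The sources used here do not say how the intervals were drawn, and no gene annotation or sequence of their build, Rnor_6.0, was used.

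Total estimated counts ran from 21.6 to 41.8 M per library (M, counts divided by 1000000), of which 20.2 to 39.1 M fell on transcripts. Intervals took 5.82% to 9.23% of all counts. None of the 60 pairs of libraries within groups was alike within sampling noise (lowest chi-square per degree of freedom 13.3), so none was counted as a library deposited more than once. Earlier results of these data had set 4 libraries apart: high dose replicate 2 at 10 h, high dose replicates 3 and 4 at 34 h and vehicle replicate 2 at 10 h. At 10 h the library numbers of each group form 1 unbroken run, so dose and anything that follows those numbers cannot be told apart.

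The 200 intervals held a median of 38.1% of all interval counts (34.4% to 70.4% over libraries) in 0.675% of the interval length. Their summed level had a median of 26730 CPM over libraries, between 22467 and 71623 CPM. The mean level of a member ran from 49.3 CPM to 2121 CPM with a median of 80.6 CPM, against a median of 0.285 CPM for all 23895 intervals. Only 5 members exceeded 1000 CPM and 70 exceeded 100 CPM. At the other extreme, 320 of the 23895 intervals had no count in any library.

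The edge of the list is not a gap. The last 3 members are chr7:121030255-121049801 at 49.43 CPM, chr13:90753082-90758759 at 49.28 CPM and chr5:156878987-156897142 at 49.26 CPM. Just outside lie chr14:86713752-86733751 at 49.17 CPM, chr4:168183598-168194427 at 48.94 CPM and chr6:11064969-11084968 at 48.94 CPM. All 200 members passed the filter on low counts, and the lowest estimated count of any member in any library was 55.3.

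**Figure D1:**
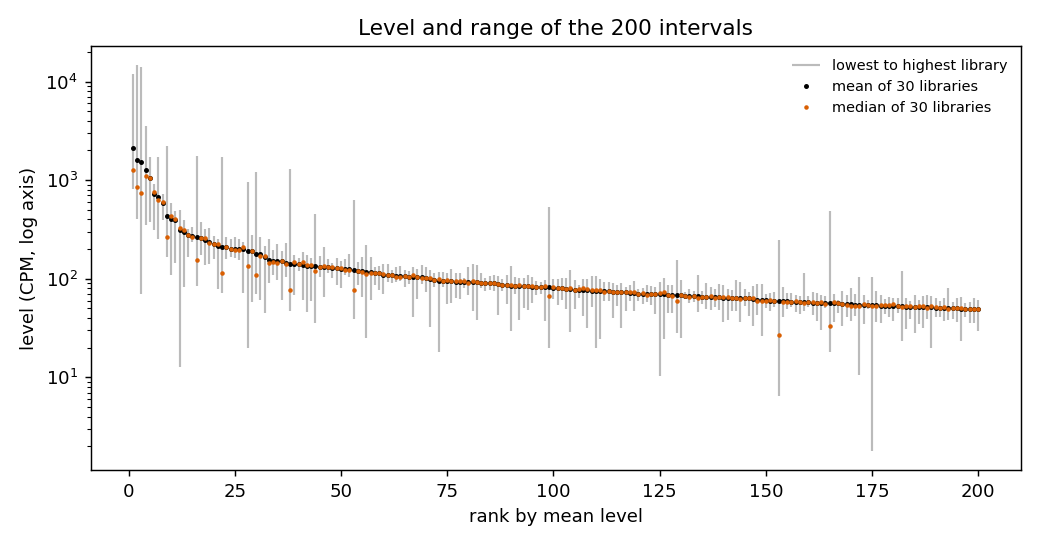
Mean and median level in CPM (log axis) of the 200 intervals against rank, with grey lines from the lowest to the highest of 30 libraries. The mean lies far above the median in ranks 1 to 3, where single libraries exceed the mean several times, and long grey lines among the lower ranks mark intervals that differ widely between kidneys.

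Members were shorter than intervals at large. Their median length was 11818 bp (1842 to 20000 bp) against 20000 bp for all intervals. Exactly 20000 bp, the longest length in the index, was the length of 44 members (22%) and of 54.9% of all intervals. Length was not used in the choice, but a level in CPM grows with the length that is transcribed. On the deposited TPM scale, which divides by length and then sets the sum over all targets to 1000000, members ran from 2.91 to 992 TPM with a median of 10.1 TPM, and ranking by mean TPM would have kept 98 of the 200.

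Per length, the highest members were chr14:46646819-46649470 at 992 TPM, chr1:11907094-11915036 at 222 TPM, chr2:225848376-225854129 at 219 TPM, chr6:30631555-30634570 at 177 TPM and chr14:46634208-46645665 at 163 TPM. Only 88 transcripts had a higher mean TPM than the first of these. Its estimated counts were whole numbers in only 6 of 30 libraries, so its level includes shared reads. Its mean of 2121 CPM was 1390 CPM without the 3 libraries in which it was highest. The 8 members of at least 100 TPM were 2073 to 11458 bp long.

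The members lay on all 20 autosomes. Chromosome 1 held 20, chromosome 4 held 19, and chromosomes 5, 8 and 10 held 16 each. As a share of the intervals on a chromosome, chromosome 20 was highest with 9 of 634 (1.42%) and chromosome 9 lowest with 4 of 961 (0.416%). None of the 138 intervals on unplaced scaffolds was a member. Most members stood alone: 180 had no other member starting within 200 kb, and the other 20 formed 10 pairs, with no run of 3 or more.

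The pair on chromosome 14 is the richest in counts. Between positions 46538076 and 46686484 the index holds 8 intervals, of which chr14:46634208-46645665 (rank 2, 11458 bp, mean 1618 CPM) and chr14:46646819-46649470 (rank 1, 2652 bp, mean 2121 CPM) are members, 1153 bp apart. The 6 others ranged from no count in any library, at chr14:46581488-46587905, to 23.5 CPM, at chr14:46658491-46678490. Nearly all counts of this stretch thus fell on 2 of its 8 intervals.

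Neighbouring members varied together to widely differing degrees. Pearson's r of log2(CPM + 0.5) was taken over the 30 libraries, as a description of points that share libraries and depth. It ran from 0.18 to 0.97 in the 10 pairs and reached 0.5 in 4. The median over all pairs of members was 0.11, below each of these 10. The chromosome 14 pair had the highest (0.97), and 0.92 without the 3 libraries in which it was highest. The pair chr1:11907094-11915036 and chr1:11970745-11973641, 55708 bp apart, had 0.84. Both of these intervals were highest in the same 3 libraries, and no r without them is given for this pair. The pair chr8:33478755-33498754 and chr8:33520713-33540712, 21958 bp apart, had 0.65, and chr5:91126214-91132467 and chr5:91135639-91140430, 3171 bp apart, had 0.57. Of the other close pairs, chr11:61988220-61995526 and chr11:61996624-62014425, 1097 bp apart, had 0.23, and chr20:45108056-45121276 and chr20:45126564-45142953, 5287 bp apart, had 0.18. The remaining pairs, 33054 to 79105 bp apart on chromosomes 3, 5, 13 and 20, had 0.45, 0.46, 0.42 and 0.18.

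The level of rank 1, chr14:46646819-46649470, was 990, 897, 1227, 9364 and 1021 CPM in vehicle kidneys at 10 h. It was 1835, 1084, 1845, 1702 and 1112 CPM at the low dose and 2202, 1875, 1191, 1714 and 1623 CPM at the high dose. At 34 h it was 1011, 1010, 4776, 1620 and 810 CPM in vehicle, 1730, 994, 1034, 1863 and 1239 CPM at the low dose and 2522, 915, 1268, 11959 and 1196 CPM at the high dose. A set of 3 libraries stands far above the rest, 2 of them from rats given saline, and the groups overlap at both times.

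Rank 2, chr14:46634208-46645665, had the same 3 high libraries. Its level was 443, 402, 765, 6791 and 623 CPM in vehicle, 1176, 544, 1121, 1157 and 599 CPM at the low dose and 1806, 1224, 712, 1011 and 1143 CPM at the high dose at 10 h. At 34 h it was 603, 537, 3259, 862 and 475 CPM in vehicle, 1178, 592, 441, 862 and 1083 CPM at the low dose and 2186, 546, 723, 14651 and 1015 CPM at the high dose. The largest value, in high dose replicate 4 at 34 h, was 17.0 times the median of the 30 libraries.

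These intervals belong to a block of 9 members on 6 chromosomes whose levels moved together. The block was drawn after the values were seen, as the members with r of at least 0.9 to rank 2. Beside the chromosome 14 pair it holds chr6:30631555-30634570 (rank 9), chr1:126712215-126732214 (rank 16), chr4:180832445-180852444 (rank 22), chr5:76103091-76110237 (rank 30), chr5:91135639-91140430 (rank 38), chr1:11970745-11973641 (rank 53) and chr17:57187911-57207910 (rank 165). Their r to rank 2 was 0.96 or more over 30 libraries and 0.84 or more over the 27 libraries without the high ones. The next member had 0.80. Rank 165 averaged 56.5 CPM over 30 libraries and 33.2 CPM over the 27, below the edge of the list, and was the 1 block member among 5 members that the ranking without the 3 libraries did not keep.

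High dose replicate 4 at 34 h held 8.15 to 17.0 times each block member's median, vehicle replicate 4 at 10 h held 6.57 to 7.88 times and vehicle replicate 3 at 34 h held 2.88 to 3.84 times. The block summed to 35911, 22265 and 10955 CPM in these 3 libraries, which was 35.3%, 22.9% and 13.2% of their interval counts. In the other 27 it summed to 1802 to 6338 CPM with a median of 2779 CPM. The highest of the 27 was high dose replicate 1 at 34 h. The 3 libraries come from 3 different groups.

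The block members also differed from each other in where the excess was largest. In vehicle replicate 4 at 10 h the folds over the median spanned a narrow range, while in high dose replicate 4 at 34 h rank 53 stood at 8.15 times its median (623 CPM) and rank 38 at 16.8 times (1301 CPM). A neighbour of rank 38, chr5:91126214-91132467 (rank 28, 3171 bp away), was outside the block with r = 0.63. It was 958 CPM in high dose replicate 4 at 34 h but 180 CPM and 132 CPM in the other 2 high libraries, near its median of 136 CPM.

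**Figure D2:**
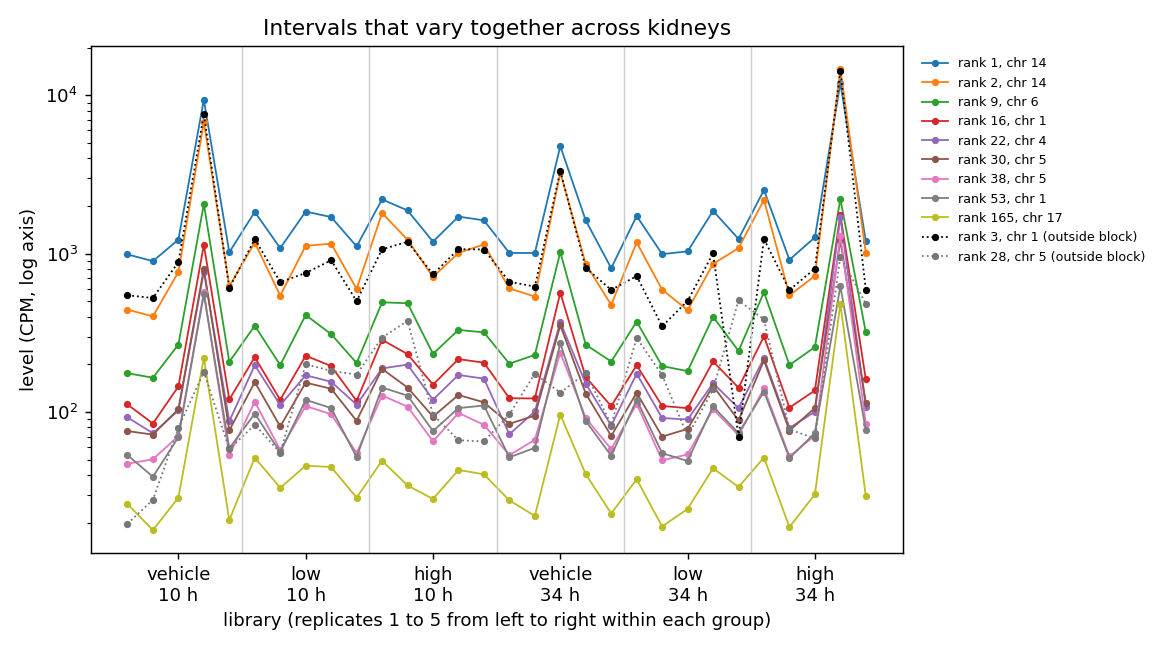
Level in CPM (log axis) of the 9 block members (solid lines) and 2 members outside the block (dotted) in each of 30 libraries, ordered by group and replicate. All solid lines peak in vehicle replicate 4 at 10 h, vehicle replicate 3 at 34 h and high dose replicate 4 at 34 h and stay nearly parallel elsewhere, and rank 3 drops alone in low dose replicate 5 at 34 h.

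Rank 3, chr1:11907094-11915036, shared the excess but lay outside the block. It stood at 7582 CPM in vehicle replicate 4 at 10 h, 3331 CPM in vehicle replicate 3 at 34 h and 14209 CPM in high dose replicate 4 at 34 h. Over the other 27 libraries its r to rank 2 was 0.34. In low dose replicate 5 at 34 h it was 70.0 CPM, the lowest of the 30 and 0.201 times the next lowest, 348 CPM. Rank 2 was 1083 CPM in that library, which is among the 27. No r without it is given, so whether rank 3 followed the smaller changes of the block elsewhere was not tested. Its ratio of highest to lowest library was the widest of the 200 members.

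Few other targets followed the block. Of 17242 transcripts with a mean of at least 1 CPM, 11 had r of 0.9 or more to rank 2, and they carried only 3 distinct count profiles. A set of 8, all 49 bp long, had equal counts in every library, and a pair of 666 bp did too. The most abundant was ENSRNOT00000079005, 798 bp long, at 2405 CPM, 2522 CPM and 1229 CPM in the same high libraries and 186 to 652 CPM in the other 27. Among 5749 other intervals of that level only 2 did so: chr3:102594467-102614466, rank 258 at 42.8 CPM, and chr14:46679593-46686484, within the chromosome 14 stretch at 1.72 CPM.

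Fractional counts show where the estimates shared reads. Counts were whole, within 1e-06, in all 30 libraries for 21 of the 200 members, in no library for 61 and in under 5 libraries for 132. In the block, rank 30 (chr5:76103091-76110237) had whole counts in 27 libraries and stood at 1212 CPM in high dose replicate 4 at 34 h against a median of 110 CPM. The other 8 block members had whole counts in 0 to 6 libraries. Whether reads were divided among block members was not tested, as the read assignments were not used here.

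The excess set the group means of the block, so its dose and time differences were not stable. No block member passed edgeR's test in any comparison. With all libraries, the median log2 difference of the 9 members was -0.84 for low dose against vehicle and -0.58 for high dose against vehicle at 10 h (edgeR, smallest adjusted p = 0.794 and 0.789). Without vehicle replicate 4 these were 0.62 and 0.87 (edgeR, smallest adjusted p = 0.705 and 0.205). At 34 h the median was -0.45 for low dose against vehicle and 1.26 for high dose against vehicle, and 0.26 and 0.35 without the 3 high libraries. The sign thus turned in 3 of these 4, and high against vehicle at 34 h turned to -0.36 when only high dose replicate 4 was left out.

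Time and dose-by-time differences of the block moved in the same way. The median was 1.78 for high against low dose at 34 h and 0.12 without the 3 libraries. Vehicle at 34 h against 10 h went from -0.52 to 0.18. The change of the low dose effect between times went from 0.39 to -0.36, and that of the high dose effect from 1.91 to -0.47. High against low dose at 10 h uses none of the 3 libraries and gave 0.21.

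Summed over all 200 members the groups overlapped. The level was 32015 ± 11831 CPM (SD, n = 5) in vehicle, 26283 ± 1231 CPM at the low dose and 26830 ± 2430 CPM at the high dose at 10 h. At 34 h it was 27800 ± 6304 CPM, 26223 ± 1713 CPM and 35752 ± 20245 CPM. Without the block the sums were 25789 ± 3036, 22890 ± 907 and 22790 ± 2230 CPM at 10 h and 23653 ± 2678, 23171 ± 914 and 25719 ± 5876 CPM at 34 h. Leaving out these 9 intervals thus lowered the SD in every group. Rank 3, which shared the excess, stayed in these sums. The kidneys with the excess were still highest in their groups, at 30843 CPM (vehicle, 10 h), 27644 CPM (vehicle, 34 h) and 35712 CPM (high dose, 34 h).

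Most members were steady. The highest library stood within 2 times the lowest in 106 of 200 members, over 5 times in 26 and over 10 times in 16, with a median ratio of 1.94. The SD of log2 level within groups had a median of 0.19 over members, and 22 members exceeded 0.5. Pairs of members had a median r of 0.11 over libraries.

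**Figure D3:**
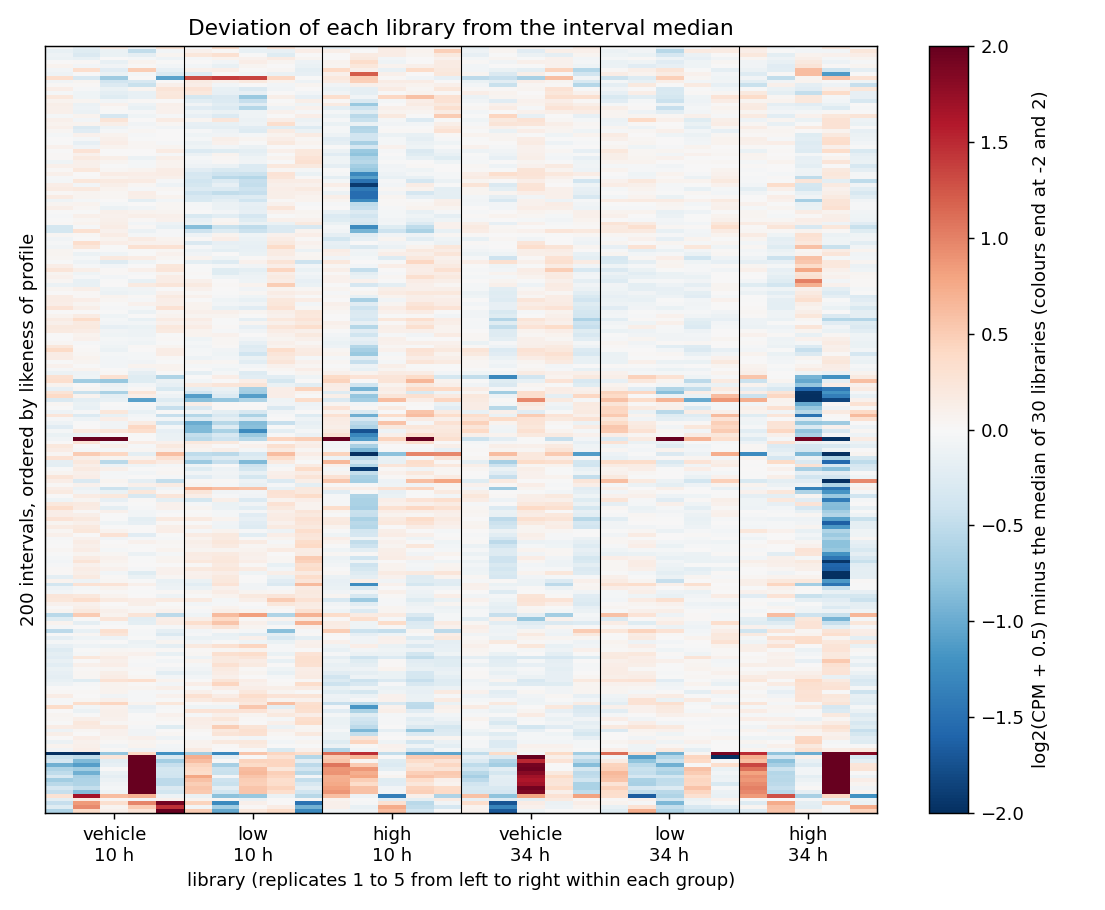
Deviation of log2(CPM + 0.5) from the median of 30 libraries for the 200 intervals (rows, ordered by likeness of profile) in each library (columns, by group and replicate), red above and blue below. The block is the red band at the bottom in 3 libraries, and the blue stripes in high dose replicate 2 at 10 h and high dose replicate 4 at 34 h are members low in those single kidneys.

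A single kidney lay more than 2 times above all 29 others in 5 members and more than 2 times below in 16. Of the high ones 4 were block members in high dose replicate 4 at 34 h. The same library was the lowest by that margin in 8 members, high dose replicate 2 at 10 h in 5, high dose replicate 3 at 34 h in 2 and low dose replicate 5 at 34 h in 1, rank 3. At 1.5 times the counts were 12 above and 29 below. High dose replicate 2 at 10 h was the lowest library of all in 65 members and high dose replicate 4 at 34 h in 38.

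Many of the low members, though not ranks 3, 12, 13, 56 and 175, fell into groups that varied together. Linking members with r of at least 0.9 gave 7 groups with 41 members, including the block. In the groups other than the block, r includes the kidney in which the group is lowest. No r without that kidney is given for them. Such groups are chains, in which members at the ends need not be alike: the lowest r within the group of 16 was 0.32 and within the group of 8 it was 0.71. The group of 16, from chr3:111393263-111413262 (rank 42) to chr8:87214310-87223447 (rank 196), averaged 1.28 log2 units below the median in high dose replicate 4 at 34 h. In this group chr5:145089000-145105497 (rank 125) was 10.3 CPM there against 56.8 CPM in the next lowest library, and chr4:81233314-81236995 (rank 73) was 18.2 CPM against 80.1 CPM. The group of 8, among them chr14:20475230-20478823 (rank 11) and chr8:59529867-59531939 (rank 32), averaged 1.37 log2 units below the median in high dose replicate 2 at 10 h. The 4 other groups were pairs, also lowest in that library.

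The one high member outside the block was chr10:75125031-75145030 (rank 99). It stood at 537 CPM in vehicle replicate 5 at 10 h, 4.86 times the next library, 110 CPM, with a median of 66.2 CPM. The level of 2 other members went with it: chr3:68090455-68110454 (rank 7) and chr8:84326907-84346906 (rank 44) were also highest in that library, at 1737 CPM and 449 CPM. The 3 members, on 3 chromosomes, had r of 0.87 to 0.89 with each other, and 0.84 to 0.88 without that library. All 3 had their lowest level in vehicle replicate 2 at 34 h, at 20.0, 253 and 35.7 CPM.

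The widest gaps below all other kidneys were in high dose replicate 3 at 34 h and in 2 members. Rank 12, chr4:176386935-176406934, was 12.7 CPM there against 239, 431, 125 and 292 CPM in the other high dose kidneys at 34 h and 125 CPM or more in the remaining 29 libraries. Rank 175, chr6:42805519-42825518, was 1.79 CPM there against 88.1, 55.8, 14.6 and 56.3 CPM, and the lowest of the 29 others was 14.6 CPM. In both members the second lowest library was high dose replicate 4 at 34 h.

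Rank 153, chr1:171771782-171791781, took 2 separate ranges. It was 175 and 245 CPM in vehicle replicates 2 and 3 at 10 h, 241 and 180 CPM in high dose replicates 1 and 4 at 10 h, 216 CPM in low dose replicate 3 at 34 h and 104 CPM in high dose replicate 3 at 34 h. In the other 24 libraries it lay between 6.52 and 43.8 CPM. High values thus came from 4 of the 6 groups and from vehicle as well as treated rats.

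**Figure D4:**
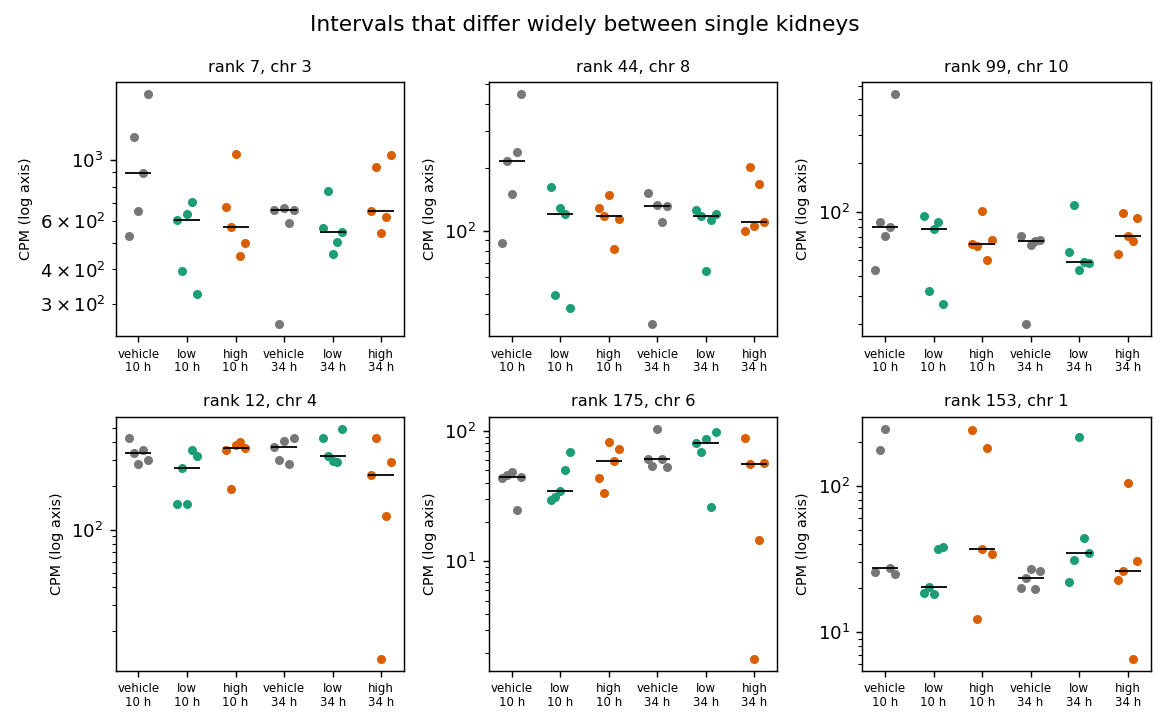
Level in CPM (log axis) of 6 intervals in each kidney by group, with the group median as a bar. Vehicle replicate 5 at 10 h is highest and vehicle replicate 2 at 34 h lowest in ranks 7, 44 and 99, ranks 12 and 175 have 1 very low kidney at the high dose at 34 h, and rank 153 is high in 6 kidneys of 4 groups.

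The dose and time comparisons used edgeR's quasi-likelihood test on 35237 targets, with Benjamini-Hochberg adjustment over all of them and calls at an adjusted p under 0.05. It called none of the 200 members in any of 9 comparisons. Few targets were called at all: percent called was 0 for low dose against vehicle at 10 h, 0.00568 for high dose against vehicle at 10 h, 0 for high against low dose at 10 h and 0.0114 for low dose against vehicle at 34 h. It was 0.00284 for vehicle at 34 h against 10 h and 0 in each of the other 4.

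At 10 h, high dose kidneys differed most from the others by counts of small p and of groups without overlap. Members lower than vehicle numbered 121 for low dose at 10 h, 102 for low dose at 34 h and 127 for high dose at 34 h. Between the doses 107 were lower at 10 h and 127 at 34 h. The share of all targets that were lower is not given. For high dose against vehicle at 10 h, 133 of 200 members had a lower mean. The median log2 difference was -0.07 against 0.03 for all targets. A single one of these kidneys, high dose replicate 2, was the lowest of all libraries in 65 members. The unadjusted p was under 0.05 in 34 members (17%; 23 lower), against 10.9% of all targets tested and 21% of the 3991 targets whose mean was at least that of the lowest member. The groups did not overlap in 17 members, 15 of them lower (8.5%), against 2.67% of all and 7.12% of targets at that level. At matched level the share of members was thus near the background. DESeq2 called 9 members, 8 lower, and 1.76% of all targets.

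The smallest p in that comparison belonged to chr2:200577195-200584485 (rank 170). Its level was 51.6, 67.4, 71.5, 55.4 and 61.6 CPM in vehicle and 38.0, 37.0, 42.1, 37.0 and 48.0 CPM at the high dose. Every high dose kidney lay below every vehicle kidney. The log2 difference was -0.60 (SE 0.11; edgeR adjusted p = 0.231; DESeq2 adjusted p = 0.0002008). It was 53.0, 54.0, 61.2, 80.5 and 66.2 CPM at the low dose, so high dose lay below low dose as well, by -0.62 log2 units (SE 0.12; edgeR adjusted p = 0.15). By 34 h the group means were 54.3 ± 5.13 CPM in vehicle, 55.2 ± 9.39 CPM at the low dose and 54.8 ± 7.82 CPM at the high dose (SD, n = 5), and the groups overlapped.

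Next was chr2:55768771-55774773 (rank 19). It was 272, 291, 261, 253 and 262 CPM in vehicle and 186, 140, 228, 195 and 211 CPM at the high dose at 10 h, with no overlap. The log2 difference was -0.47 (SE 0.12; edgeR adjusted p = 0.302; DESeq2 adjusted p = 0.01385). High dose replicate 2, low in many members, was also lowest here.

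Against the low dose at 10 h, high dose kidneys did not overlap in 13 members, all lower (6.5%), against 2.8% of all targets and 5.61% at matched level. The unadjusted p was under 0.05 in 32 members (16%), against 13.4% and 23.6%. DESeq2 called 15 members, limma's voom 7 and a single edgeR fit of all 30 libraries 5, against 2.83%, 2.05% and 0.883% of all targets. Without high dose replicate 2, edgeR called 1 member, chr8:44159511-44164866, higher at the high dose by 0.79 log2 units (edgeR adjusted p = 0.0402), and 0.25% of all targets. The median log2 difference over members was -0.01, against 0.003 for all targets.

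The smallest p there was that of chr5:155890283-155910282 (rank 70). Its level was 102, 121, 111, 101 and 103 CPM at the low dose and 83.9, 75.2, 82.9, 73.5 and 84.9 CPM at the high dose, which was below every low dose and every vehicle kidney of 10 h (85.3 to 127 CPM). The log2 difference between doses was -0.40 (SE 0.08; edgeR adjusted p = 0.125; limma voom adjusted p = 0.03753). At 34 h high dose kidneys were at 119, 100, 133, 115 and 80.7 CPM, across the range of vehicle.

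Low dose kidneys at 10 h had 6 members beyond 1 log2 unit against vehicle, where high dose kidneys had 2. They differed less from vehicle only by counts of small p and of groups without overlap. The unadjusted p was under 0.05 in 25 members (12.5%), against 7.82% of all targets and 12.5% at matched level, and groups did not overlap in 4 (2%), against 1.1% and 1.4%. The median log2 difference over members was -0.03, against 0.01 for all targets. DESeq2 called 2 members, and 0.23% of all targets. They were chr20:10952892-10965830 (rank 25), with 225, 243, 265, 193 and 212 CPM against 175, 184, 181, 185 and 173 CPM in vehicle, and chr3:155263442-155268846 (rank 41). Rank 25 was higher without overlap by 0.32 log2 units (SE 0.07; edgeR adjusted p = 0.639).

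Rank 41 was 81.6, 108, 104, 120 and 119 CPM at the low dose and 115, 145, 164, 150 and 134 CPM in vehicle at 10 h, and the lowest vehicle kidney lay within the low dose range. The log2 difference was -0.43 (SE 0.10; edgeR adjusted p = 0.639). By 34 h the kidneys of low dose rats held 167, 184, 152, 150 and 186 CPM against 167, 151, 148, 147 and 150 CPM. The low dose effect therefore differed between times by 0.56 log2 units (SE 0.13; edgeR adjusted p = 0.682).

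Of the 5 members above 1000 CPM, chr1:80865347-80880355 (rank 4) did not overlap between low dose and vehicle at 10 h. It was 1360, 3525, 1709, 1799 and 1036 CPM in vehicle and 1017, 629, 657, 1029 and 758 CPM at the low dose. The lowest vehicle kidney stood just above the highest low dose kidney. The log2 difference was -1.22 (SE 0.33; edgeR adjusted p = 0.639). At 34 h the ranges were 633 to 1930 CPM in vehicle, 355 to 1401 CPM at the low dose and 486 to 2687 CPM at the high dose, all overlapping.

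At 34 h the interval nearest to a call was chr19:39209653-39229253 (rank 195). Low dose kidneys held 58.6, 56.3, 50.4, 60.9 and 54.1 CPM and vehicle kidneys 44.5, 42.2, 40.7, 40.3 and 43.2 CPM. Every low dose kidney was above every vehicle kidney. The log2 difference was 0.40 (SE 0.06; edgeR adjusted p = 0.0758; DESeq2 adjusted p = 1.446e-06; limma voom adjusted p = 0.1534). High dose kidneys held 52.6, 53.7, 50.6, 59.1 and 46.2 CPM, also above all vehicle kidneys, with a log2 difference of 0.29 (SE 0.10; edgeR adjusted p = 0.956).

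The same interval went the other way at the high dose at 10 h. It was 45.2, 38.0, 42.1, 36.0 and 41.5 CPM there, 43.4, 60.0, 56.9, 52.1 and 51.5 CPM in vehicle and 47.7, 58.6, 60.5, 51.9 and 64.1 CPM at the low dose. High dose thus lay below low dose without overlap and overlapped vehicle through 1 vehicle kidney. The high dose effect differed between times by 0.66 log2 units (SE 0.14; edgeR adjusted p = 0.339; DESeq2 adjusted p = 0.008138). Vehicle kidneys themselves were lower at 34 h than at 10 h by -0.32 log2 units (SE 0.08; edgeR adjusted p = 0.649).

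Over all members, with low dose set against vehicle at 34 h, the unadjusted p was under 0.05 in 23 members (11.5%), against 10.8% of all targets and 21.3% at matched level. Groups did not overlap in 4 (2%), against 1.96% and 4.03%, and the median log2 difference was -0.002 over members and 0.002 over all targets. DESeq2 called 5 members and 0.942% of all targets. Among them was chr1:91064429-91070992 (rank 80), at 73.1, 79.8, 94.3, 84.7 and 81.0 CPM against 98.8, 113, 97.1, 113 and 101 CPM in vehicle. It was lower without overlap by -0.35 log2 units (SE 0.08; edgeR adjusted p = 0.315).

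High dose kidneys at 34 h gave the fewest members of small unadjusted p. Against vehicle the unadjusted p was under 0.05 in 9 members (4.5%), against 4.48% of all targets and 4.69% at matched level, and 1 member, rank 195, did not overlap, against 0.919%. Against the low dose the counts were 6 (3%) against 3.03% and 2.13%, and 0 against 0.446%. The median log2 difference of members was -0.03 against vehicle and -0.04 against low dose, with -0.03 for all targets in both. Large differences were more frequent than in the other comparisons of groups: 8 members against vehicle and 10 against low dose were beyond 1 log2 unit, where the other 5 comparisons had 1 to 6. Against low dose the 10 were the 9 block members (1.28 to 2.26) and rank 3 (2.77), all highest in high dose replicate 4 at 34 h. Without that replicate the block members lay between -0.01 and 0.39 against low dose. Against vehicle the block members ran from 0.89 to 1.77 and rank 3 was 1.58. Ranks 1, 9 and 53 of the block were at 0.98, 0.90 and 0.89. The block and rank 3 thus do not make up all 8. Without the 3 high libraries the block members lay between 0.14 and 0.79 against vehicle. High dose replicates 3 and 4 at 34 h, which stood apart earlier, are 2 of the 5 high dose kidneys in these comparisons. DESeq2 and limma's voom called no member. Smallest in p were chr19:48197249-48210480 (rank 177), at 56.6, 43.0, 49.2, 35.6 and 42.5 CPM against 55.7, 62.1, 62.6, 59.5 and 53.5 CPM in vehicle (log2 difference -0.41, SE 0.10; edgeR adjusted p = 0.956), and chr9:90875205-90880113 (rank 76; -0.41, SE 0.12; edgeR adjusted p = 0.956).

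Between vehicle kidneys of 34 h and 10 h, 136 of 200 members had a lower mean at 34 h, and the median log2 difference was -0.04 against -0.02 for all targets. Groups did not overlap in 6 members (3%), against 1.33% of all targets and 2.48% at matched level, and the unadjusted p was under 0.05 in 22 (11%), against 7.58% and 12.6%. The smallest p was that of chr17:8562451-8569971 (rank 171), whose counts were whole in all 30 libraries. It held 52.8, 49.5, 58.7, 52.3 and 51.6 CPM at 10 h and 63.2, 69.8, 64.5, 61.1 and 65.4 CPM at 34 h, without overlap. The log2 difference was 0.30 (SE 0.06; edgeR adjusted p = 0.49; DESeq2 adjusted p = 0.001455). It was followed by chr7:119569278-119586843 (rank 108; 0.21, SE 0.05; edgeR adjusted p = 0.649). DESeq2 called 3 members, all higher, and 0.21% of all targets.

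**Figure D5:**
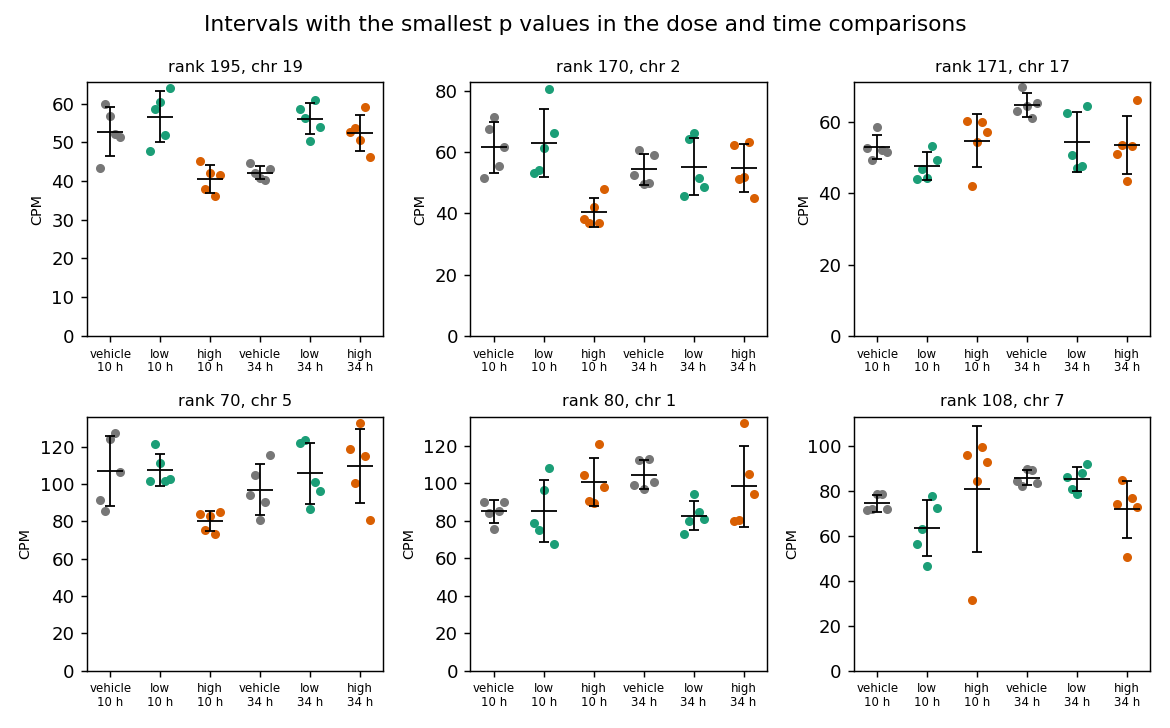
Level in CPM of 6 intervals in each kidney (points) by group, with the mean and SD of 5 kidneys as black bars. Rank 195 is higher in both treated groups than in vehicle at 34 h and lowest at the high dose at 10 h, ranks 170 and 70 are lowest at the high dose at 10 h alone, and none of these differences passed edgeR's test after adjustment.

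Changes of a dose effect between 10 h and 34 h were tested as interactions that share the vehicle groups. The unadjusted p was under 0.05 in 17 members for the low dose (8.5%), against 5.64% of all targets and 7.19% at matched level, and in 23 for the high dose (11.5%), against 10.1% and 17.4%. The median difference of effects was 0.03 over members for both doses, while over all targets it was -0.001 at the low dose and -0.06 at the high dose. For the low dose the widest was rank 153, at 3.54 log2 units (SE 1.03; edgeR adjusted p = 0.807), which rests on its 2 separate ranges: 2 of 5 vehicle kidneys at 10 h and 1 of 5 low dose kidneys at 34 h were high. For the high dose, rank 170 followed rank 195 at 0.58 (SE 0.16; edgeR adjusted p = 0.368).

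Simulated counts show which sizes the test recovers at the spread of targets at large when 200 targets of at least 5 CPM are changed. Between groups of 5, changes of 2-fold planted in simulated counts of these libraries were recovered in 78% to 94% of cases and 4-fold changes in 94% to 100%. For the interactions this was 59% and 76% at 2-fold and 89% and 94% at 4-fold. The adjustment is milder when many targets change. In the comparisons of kidneys edgeR called at most 4 of 35237 targets, so these shares can overstate what it would recover there. They also set no bound for members that vary widely between kidneys. Rank 3 and rank 2 differed by 2.77 and 2.26 log2 units between high and low dose at 34 h and were not called (edgeR adjusted p = 0.9994 for both). A missed call does not show that levels were alike.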

How the data were processed

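RNA of 30 whole rat kidneys was sequenced, and the authors deposited 1 table per library with an estimated count and a TPM value for each of 65166 targets. Per the submitters' processing notes, kallisto 0.42.2 and the build Rnor_6.0 were used; the sources used here give no other settings. A deposited estimated count can be fractional, since kallisto divides reads that fit several targets, and a deposited TPM value divides it by effective length. Transcript totals of 20.2 to 39.1 M counts per library (M, counts divided by 1000000) set the precision.

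From these tables the level (CPM) of an interval was computed as its estimated count per 1000000 transcript counts. Estimated counts were rounded, filtered with filterByExpr over 30 libraries and tested with edgeR 4.0.16 (robust quasi-likelihood, TMM factors on transcripts, R 4.3.3), with only the groups compared in each fit. SE was taken as the log2 difference over the square root of F. DESeq2 1.42.0 and limma 3.58.1 (voom with quality weights) were alternatives, with other size factors, no filter, intervals alone, a single fit, and libraries left out. Scripts were tested on simulated data. The members, lists and tests were chosen with earlier results of these data known.

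Intervals named are the 12 of highest level, the members in 1 stretch of chromosome 14 (positions 46538076 to 46686484), the 3 members at the lower edge and the 3 intervals below it, the 5 of highest TPM, and per comparison called members or, with none called, the 2 of smallest p. A part of the rule for libraries with 5 or more members over 2-fold above all others named none. Block members and the others shown for single kidneys were chosen after their values were seen.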

Additional observations from a re-analysis of the deposited data

Results flagged for a closer look

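Within a group of 5, a kidney far from the other 4 was looked for in 27 named members and 162 groups, by the gap to the nearest kidney as a share of the range (above 0.71). This gave 23 flags in 12 members, often for the same kidneys. For independent groups of normal values, chance alone flags about 1 in 20. The 162 groups are the same 6 groups of kidneys seen in 27 members, some of which vary together. The flags are thus not independent and cannot be set against that rate.

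Of these, 9 were block members in the same 3 kidneys. Vehicle replicate 4 at 10 h stood out at chr14:46646819-46649470 (9364 CPM), chr14:46634208-46645665 (6791 CPM) and chr6:30631555-30634570 (2058 CPM). Vehicle replicate 3 at 34 h did so at 4776, 3259 and 1024 CPM, and high dose replicate 4 at 34 h at 11959, 14651 and 2213 CPM. At chr1:11907094-11915036 the same kidneys were highest in their groups at 7582, 3331 and 14209 CPM, and high dose replicate 3 at 10 h was low at 741 CPM against 1063 to 1189 CPM.

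High dose replicate 2 at 10 h was low at chr5:120306399-120324614 (314 CPM against 754 to 806 CPM), chr4:176386935-176406934 (190 CPM), chr9:90875205-90880113 (63.2 CPM) and chr7:119569278-119586843 (31.7 CPM against 84.4 to 99.9 CPM). Its transcript total, 26.7 M (counts divided by 1000000), was within the range of the other libraries.

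The other flags were single. At chr5:120306399-120324614 low dose replicate 4 at 34 h was 801 CPM against 844 to 857 CPM. Vehicle kidneys of 34 h stood out at chr3:68090455-68110454 (replicate 2, 253 CPM against 589 to 668 CPM), chr14:20475230-20478823 (replicate 5, 311 CPM) and chr3:155263442-155268846 (replicate 1, 167 CPM). At chr1:171771782-171791781 low dose replicate 3 at 34 h was 216 CPM and high dose replicate 3 at 34 h was 104 CPM.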

How the results depend on the processing

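With edgeR no member was called in any of 9 comparisons, and this held with DESeq2's size factors, without a filter, on intervals alone and, added after the data were seen, without the 3 libraries high in the shared block. At 10 h DESeq2 called 2 members for low dose against vehicle, 9 where vehicle was set against the high dose and 15 between the doses. It called 5 for low dose against vehicle at 34 h, 3 for vehicle at 34 h against 10 h and 1 for the change of the high dose effect. In the other 3 it called 0, and it gave no adjusted p for up to 11 members of a comparison. Of all targets DESeq2 called, in the same order, 0.23%, 1.76%, 2.83%, 0.942%, 0.21% and 0.301%. In the other 3 comparisons it called 0.0114% to 0.119% of all targets. For high against low dose at 10 h, limma's voom called 7 members and 2.05% of all targets. A single fit of all libraries called 5 and 0.883%, and the fit without the 4 libraries set apart earlier 1 and 0.25%. Leaving out 1 library at a time called 0 to 1 members in that comparison and 0 in the other 100 fits. For high dose against vehicle at 34 h, a term for the run of library numbers called 0. For the 2 members of smallest p in each comparison (18 differences), no alternative turned a sign, and 11 passed the threshold under another tool or fit. The median differences of the block did turn sign, as given above with its values. Ranking by mean TPM kept 98 of the 200 members, by median CPM 196, and without the 3 high libraries 195. No paired analysis was possible because the groups hold different animals, and replicates were numbered here in sample order, not by the labels. The lowest count of a member, 55.3, was that of rank 175 in high dose replicate 3 at 34 h, at 1.79 CPM. The median of that member was 53.2 CPM, so the count belongs to 1 low library. Depth limits such single low counts more than the others.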
